A study of Mus musculus with 4 samples.

Results

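The genes described here are 35 genes of glycolysis and of the response to low oxygen, followed across 6 cell classes of the embryonic mouse heart ventricle. They were chosen by symbol from the 55405 genes of the count matrices: glucose and lactate transporters, the enzymes from hexokinase to lactate dehydrogenase, hypoxia-inducible factors (HIF), their prolyl hydroxylases and a set of genes that HIF is known to induce. All 35 symbols were found, and Aldoa stood on 2 rows, whose counts were summed. The data were single-cell RNA-seq of ventricles taken at E12.5 (embryonic day) and dissociated with collagenase. There were 2 libraries labelled Gata4_het, from Gata4fl/+ embryos, and 2 labelled Gata4_KO, from Gata4fl/fl embryos, named here het 1, het 2, KO 1 and KO 2. Every embryo also carried Rosa26mTmG/+, a reporter that switches from red to EGFP fluorescence in cells where Cre has acted, and Cdh5(Pac)-CreER, a tamoxifen-inducible Cre under an endothelial promoter. Tamoxifen was given at E9.5 in both groups, so the het libraries too come from embryos with Cre and with 1 floxed Gata4 allele, and neither group was free of Cre. The labels do not say if embryos were pooled for a library, so the p-values measure only the spread between these libraries, which may be technical.

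Glycolysis turns glucose into pyruvate in the cytosol, and lactate dehydrogenase can turn pyruvate into lactate, which leaves the cell through monocarboxylate transporters. Prolyl hydroxylases (Egln1 and Egln3, also called PHD enzymes) use oxygen to mark HIF alpha subunits for destruction, so when oxygen is scarce HIF builds up, pairs with Arnt and binds a short core motif near genes of glucose uptake, glycolysis, mitophagy and vessel growth. The midgestation heart works before its coronary circulation is complete, and its wall has an outer compact layer and an inner layer of trabeculae lined by endocardium.

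The core letters of the HIF motif, ACGTG or GCGTG, were searched on both strands of the 250 bases before the RefSeq transcription starts of the members (GRCm38.p6), because these genes are known mostly as HIF targets and many of them moved together below. Of the 35 members, 31 had at least 1 such window, and 28 of them held a match. The members without a window were Slc2a3, Bnip3l, Ndrg1 and Epas1, and those with a window and no match were Gpi1, Tpi1 and Pgam2. Of the 44 windows of members, 36 (81.8%) held a match, against 38.6% of all 32851 windows of the same length in the table. Many members were chosen as known HIF targets, so a higher share was likely from that choice alone. Some windows of the same gene overlap, as for Eno1, Aldoa and Pfkm, and were counted separately. Over all windows ACGTG stood in 16.6% and GCGTG in 28.2%, with some windows holding both, and CACGTG, which counts as 2 overlapping matches, in 6.02%. The windows of members were also richer in G and C, with a median of 62.2% against 52.4%. A match is a description of the letters and not a measured site. Printed here 5′ to 3′ on the gene's strand are the windows of genes that differed between cell classes: Bnip3, Pgk1 and Ldha, which were highest in compact cardiomyocytes, Egln3 and Ankrd37, which were highest in vascular cells, and Eno3, which was highest in trabecular cardiomyocytes. Capitals mark the matches, and CACGT and CACGC are matches read from the other strand.
Bnip3 (chr7:138909507-138909756, minus strand, 5 matches): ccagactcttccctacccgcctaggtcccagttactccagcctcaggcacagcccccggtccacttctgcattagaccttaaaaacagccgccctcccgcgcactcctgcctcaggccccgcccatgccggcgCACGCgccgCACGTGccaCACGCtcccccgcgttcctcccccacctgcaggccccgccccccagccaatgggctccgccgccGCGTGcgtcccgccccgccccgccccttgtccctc
Pgk1 (chrX:106186850-106187099, plus strand, 2 matches): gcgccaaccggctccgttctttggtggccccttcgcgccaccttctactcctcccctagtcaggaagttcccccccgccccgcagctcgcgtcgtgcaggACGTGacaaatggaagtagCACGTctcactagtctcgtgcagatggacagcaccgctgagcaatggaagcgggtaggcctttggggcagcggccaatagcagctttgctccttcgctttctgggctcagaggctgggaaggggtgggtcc
Ldha (chr7:46845554-46845803, plus strand, 5 matches): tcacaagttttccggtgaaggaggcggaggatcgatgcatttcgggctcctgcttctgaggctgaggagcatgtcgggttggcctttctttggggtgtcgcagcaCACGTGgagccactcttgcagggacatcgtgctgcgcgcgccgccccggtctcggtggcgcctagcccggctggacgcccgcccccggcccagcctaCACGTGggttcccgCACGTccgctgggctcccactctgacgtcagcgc
Egln3 (chr12:54203875-54204124, minus strand, 1 match): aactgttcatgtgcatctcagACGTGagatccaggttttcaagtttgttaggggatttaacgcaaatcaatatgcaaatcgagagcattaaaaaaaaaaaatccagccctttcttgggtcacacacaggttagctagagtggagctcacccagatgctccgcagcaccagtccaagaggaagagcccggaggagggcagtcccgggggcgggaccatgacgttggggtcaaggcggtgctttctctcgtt
Ankrd37 (chr8:45999851-46000100, minus strand, 4 matches): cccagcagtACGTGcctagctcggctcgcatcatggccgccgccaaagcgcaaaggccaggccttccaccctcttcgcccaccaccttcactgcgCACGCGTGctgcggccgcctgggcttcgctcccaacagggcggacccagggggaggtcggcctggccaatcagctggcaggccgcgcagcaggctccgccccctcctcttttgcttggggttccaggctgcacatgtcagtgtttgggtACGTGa
Eno3 (chr11:70656926-70657175, plus strand, 1 match): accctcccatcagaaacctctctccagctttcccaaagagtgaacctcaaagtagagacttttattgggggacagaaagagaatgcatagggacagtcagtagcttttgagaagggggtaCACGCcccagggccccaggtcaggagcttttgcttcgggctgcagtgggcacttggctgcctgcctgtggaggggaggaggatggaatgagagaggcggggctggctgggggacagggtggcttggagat
In the GENCODE M21 gene models the Bnip3 window overlaps exons by 13 bases and the Ankrd37 window by 17 bases, and the other 4 windows overlap none. The Ldha and Ankrd37 windows lie inside their annotated genes (chromosome 7, 46841475 to 46855627, and chromosome 8, 45996902 to 46005707), which start farther upstream than the transcripts used here. Ldha has a second window (chr7:46846832-46847081, plus strand), with 1 match, whose sequence is not shown.

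The 4 libraries held 137890971 to 190207638 UMIs (unique transcript tags) and 52719 cells after filtering, and het 1 stood apart: it held 22474 of these cells at a median of 4165.5 UMIs, and 72.2% of them stayed without a class name, while the other libraries had 9.29 to 11.9% such cells. The labels state that 10K cells were taken for a library, and the matrices held 23459, 12313, 16803 and 8597 barcodes. Between 14 and 93 cell barcodes were shared by any 2 libraries, at most 0.683% of the smaller library. The 6 classes were rebuilt by clustering without the members and are marker-named ("endocardial-like" and so on, written below without the suffix), since no annotation of the cells by the authors was used. Each class had 76 to 1987 cells in a library. Endocardial cells (346, 617, 618 and 374 in het 1, het 2, KO 1 and KO 2) were led by Npr3, Emcn and Adgrg6, vascular cells (457, 148, 160 and 76) by Fabp4, Cldn5 and Apln, and epicardial cells (80, 194, 325 and 145) by Upk3b, Msln and Aldh1a2. Mesenchymal cells (1024, 1987, 1590 and 1113) came from 3 clusters with Postn, Lum, Tcf21 or Twist1 among their leading genes.

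Compact (491, 478, 1046 and 598) and trabecular cardiomyocytes (421, 475, 915 and 484) were 2 of 9 sub-clusters of the cardiomyocytes, and the other 7 stayed unnamed. The compact name rests on its low trabecular markers (mean log2 fold -2.0) and on a small mean log2 fold (0.188) of 4 compact markers. These were Hey2, Mycn, Prdm16 and Axin2, and none was among its 10 leading genes. Hey2, a transcriptional repressor found in the compact layer, stood at 112 to 153 CPM (a gene's UMIs summed over the cells of a class in a library, scaled to a common total) in compact and 24.3 to 60 CPM in trabecular cells. Nppa, the atrial natriuretic peptide gene of trabeculae, stood at 70.2 to 162 CPM and 2500 to 4240 CPM. Mycn was also apart, at 41.4 to 63.5 CPM in compact and 19.1 to 28.9 CPM in trabecular cells. Prdm16 overlapped (12.4 to 22.8 and 7.18 to 14.7 CPM), as did the trabecular marker Gja5 (5.77 to 14.4 and 12.2 to 42.3 CPM). These marker values were taken over non-globin UMIs, without the scaling used for the levels of members. The scales differ, so marker and member levels are not to be compared. The depth of these 2 classes overlapped: their cells held medians of 3227.5 to 4856.5 and 3303 to 4724 UMIs, below those of the endocardial class (10570.5 to 27118.5). Erythroid markers took 0.192 to 6.45% of the UMIs of the 6 classes, the highest share being in vascular cells of het 1.

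Gata4 was checked first. In endocardial cells it stood at 96.8 (het 1) and 93.2 CPM (het 2) against 184 (KO 1) and 168 CPM (KO 2), so both KO libraries were higher. The labels do not say which exons are floxed, so counts from the 3′ end do not check the deletion. The matrices also list features named FloxGata4 and FloxGata4_ctrl, whose sequence is not given in the sources used here. The first had 0 UMIs in endocardial cells of every library, and the second 12, 22, 52 and 30 UMIs. The Cre reporter EGFP stood at 1549 to 2924 CPM in endocardial and 1860 to 4293 CPM in vascular cells, against 54.4 to 97.5 CPM in compact cells.

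Over the 6 classes, compact cardiomyocytes had the highest mean level for 22 of the 35 members, and for 16 of these the 4 compact values lay above all values of the next class. Vascular cells were highest for Pfkfb3, Ndrg1, Egln3, Adm and Ankrd37, of which 3 (Egln3, Adm and Ankrd37) stood apart from the next class. Epicardial cells were highest for Slc2a1, Slc16a1, Slc16a3 and P4ha1 and apart for all but Slc16a3. Trabecular cardiomyocytes were highest for the muscle genes Pfkm, Pgam2 and Eno3, and only Eno3 stood apart. Endocardial cells were highest for Epas1 alone, where they overlapped the vascular class, and lowest for 23 members. The same counts were not computed over all genes, so these counts of members have no background. Levels are UMI counts over the class total with 1 TMM scaling across the 24 class sums (6 classes in 4 libraries). They come from the 3′ end and are compared within a gene or as shares between isozymes, not as amounts of different genes.

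**Figure D1:**
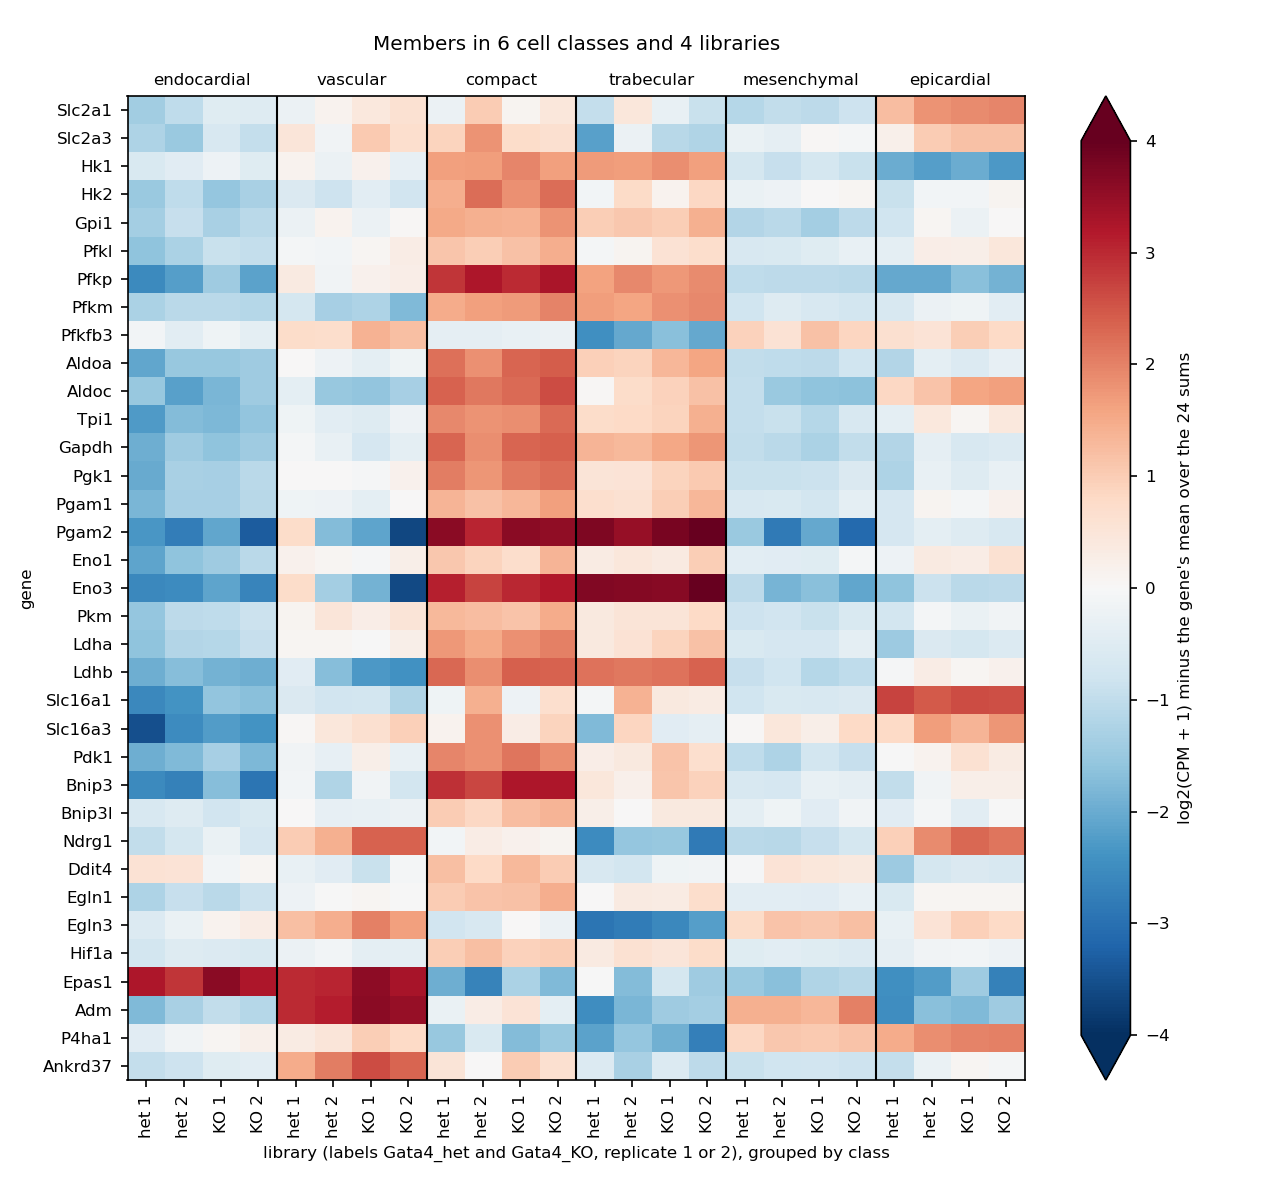
Each row is a member and each column a class sum of 1 library; colour is log2(CPM + 1) minus the gene's mean over the 24 sums, with red higher and blue lower and the scale ending at 4 in either direction. Compact columns are red in most rows from Hk1 to Pdk1, endocardial columns are blue in most rows, and Epas1, Adm and Ankrd37 are highest in 1 or both endothelial classes.

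Glucose entry differed by class. Slc2a1, the basal glucose transporter GLUT1, averaged 168 ± 34.7 CPM (SD over 4 libraries, as for all class means here) in epicardial cells, 66.1 ± 25.6 in compact, 59.4 ± 14.6 in vascular, 39.8 ± 19.7 in trabecular, 27.9 ± 8.37 in endocardial and 24.2 ± 2.41 in mesenchymal cells. The epicardial values lay above all others, and each of the lower neighbours in that order overlapped. Slc2a3, the high-affinity transporter GLUT3, was highest in compact (21.1 ± 9.27) and epicardial cells (18.8 ± 5.31), which overlapped, and lowest in endocardial cells (4.01 ± 1.23). Slc2a1 was the main transcript of this pair in every class, with 74.5 ± 2.9% of their summed UMIs in mesenchymal and 91.1 ± 3.01% in trabecular cells at the ends of the range.

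Hexokinases trap glucose as glucose 6-phosphate, and their balance differed between classes. Hk1 averaged 233 ± 25.6 CPM in compact and 230 ± 17.0 CPM in trabecular cells, which overlapped, and 15.4 ± 1.71 CPM in epicardial cells. Hk2, the inducible form, averaged 93.5 ± 22.4 CPM in compact, 32.3 ± 10.3 in trabecular and 8.68 ± 1.76 in endocardial cells. Hk1 thus made up 71.5 ± 5.87% of both in compact cells and 87.7 ± 4.0% in trabecular cells, with no overlap between the 4 libraries of either class (66.1 to 76.8 and 83.6 to 91.4%). In epicardial cells its share was 44.3 ± 9.8%.

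Phosphofructokinase commits sugar to glycolysis and has liver (Pfkl), platelet (Pfkp) and muscle (Pfkm) forms. Pfkp had the wider range, from 402 ± 54.4 CPM in compact cells and 164 ± 17.4 in trabecular cells to 10.7 ± 4.08 in endocardial and 11.6 ± 1.52 in epicardial cells. Pfkl ranged from 280 ± 40.8 CPM in compact to 54.6 ± 12.4 in endocardial cells. Of the summed UMIs of these 2 forms, Pfkl held 41.1 ± 3.99% in compact and 48.8 ± 5.83% in trabecular cells, which overlapped, and 91.9 ± 1.78% in epicardial cells. Pfkm was highest in the cardiomyocytes, at 71.1 ± 7.36 CPM in trabecular and 69.1 ± 10.4 in compact cells, and at most 17.8 CPM in any library elsewhere. Pfkfb3, which makes the allosteric activator of phosphofructokinase, had another order: vascular 34.1 ± 8.27, mesenchymal 30.9 ± 5.23, epicardial 27.9 ± 3.81, endocardial 13.3 ± 1.57, compact 12.9 ± 0.517 and trabecular 3.19 ± 0.901 CPM. Its trabecular values lay below those of every other class.

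The enzymes of the middle and lower steps ran in parallel. Gpi1 (phosphoglucose isomerase), Aldoa (aldolase A), Tpi1 (triosephosphate isomerase), Gapdh, Pgk1 (phosphoglycerate kinase), Pgam1, Eno1 and Pkm (pyruvate kinase) were each highest in compact and next in trabecular cells by mean. The compact and trabecular values overlapped for Gpi1, Pgam1 and Eno1. Trabecular values overlapped the epicardial ones for Eno1 and the vascular ones for Pkm. Pgk1, for example, averaged 2499 ± 335 CPM in compact, 1025 ± 185 in trabecular, 621 ± 40.8 in vascular, 415 ± 110 in epicardial, 345 ± 36.2 in mesenchymal and 229 ± 57.6 in endocardial cells. The ratio of the highest to the lowest class mean was 5.3 for Pkm, 5.84 for Eno1, 10.9 for Pgk1 and 14.2 for Gapdh. Aldoc, the brain-type aldolase, was a small part of aldolase UMIs, of which Aldoa held 97.9 ± 0.355% or more in every class, and had an order of its own, with 27.5 ± 4.28 CPM in compact and 13.1 ± 3.58 in epicardial cells and 0.713 ± 0.39 in endocardial cells. Several of these genes have near-identical copies or pseudogenes, which the authors' counting could split. Eno1b held 2676 UMIs in the 6 classes beside 106160 for Eno1, Ldhb-ps 2939 beside 53714 for Ldhb, and the copies of Gapdh, Pgk1, Tpi1, Aldoa, Ldha and Pgam1 held at most 54 UMIs each. Whether counting used strand is not stated, so UMIs of Gapdh, Aldoa, Pfkm, Pfkp, Hk1 and Ankrd37, which overlap genes on the other strand, may include some of theirs.

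Mutase, enolase and lactate dehydrogenase each have a second form that is abundant in heart or skeletal muscle. Eno1 held 71.0 ± 3.34% of the summed UMIs of Eno1 and the muscle enolase Eno3 in compact cells and 50.3 ± 1.26% in trabecular cells, with libraries at 66.4 to 74.0 and 48.6 to 51.3%. Pgam1 held 58.4 ± 3.58% of Pgam1 and the muscle mutase Pgam2 in compact and 44.7 ± 2.09% in trabecular cells, again without overlap. Ldha, the form that favours lactate, held 76.8 ± 1.29% of Ldha and Ldhb in compact and 62.3 ± 4.62% in trabecular cells. The compact values (75.5 to 77.9%) lay above the trabecular ones (56.6 to 66.8%) in all 4 libraries. Outside the muscle the Ldha share was 93.3 ± 4.51% in vascular, 87.7 ± 2.23% in endocardial, 85.5 ± 1.89% in mesenchymal and 70.1 ± 4.61% in epicardial cells, the last below the share in compact cells. Ldhb itself stood at 1067 ± 162 CPM in compact and 1042 ± 73.2 in trabecular cells, and at 61.2 ± 5.46 CPM in endocardial cells.

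Both lactate transporters had their highest mean in epicardial cells. Slc16a1 (MCT1) stood at 185, 156, 174 and 168 CPM in epicardial cells of het 1, het 2, KO 1 and KO 2, above the highest value of any other class, 75.7 CPM in compact cells of het 2. Slc16a3 (MCT4), the export form of glycolytic cells, averaged 107 ± 30.2 CPM in epicardial, 75.5 ± 45.0 in compact, 57.3 ± 14.5 in vascular, 51.4 ± 11.8 in mesenchymal, 34.7 ± 25.3 in trabecular and 5.55 ± 2.17 in endocardial cells. Slc16a1 held 22 ± 7.4% of both in vascular, 35.7 ± 1.86% in compact, 57.9 ± 8.76% in trabecular and 62.0 ± 8.51% in epicardial cells. In the cardiomyocytes these genes set het 2 apart: Slc16a3 stood at 42.4, 140, 47.0 and 72.6 CPM in compact and at 10.7, 70.4, 27.9 and 30 CPM in trabecular cells. Slc2a1, Slc2a3, Slc16a1 and P4ha1 were likewise highest in het 2 in both classes. In compact cells the 9 epicardial markers took 0.0215, 0.023, 0.0213 and 0.0237% of UMIs, and 0.39 to 0.434% in the epicardial class; their part in the het 2 values was not tested.

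Sensors and regulators followed. Hif1a averaged 382 ± 31.4 CPM in compact, 276 ± 31.1 in trabecular and 123 to 162 CPM in the other classes. Epas1, which encodes HIF2 alpha and is known for its endothelial expression, averaged 95.4 ± 21.0 CPM in endocardial and 94.5 ± 18.1 in vascular cells and at most 4.72 ± 3.15 elsewhere. Hif1a made up 56.6 ± 5.95% of both in endocardial and 62.1 ± 6.13% in vascular cells, and 97.8 ± 0.567% or more in the other 4 classes. Egln1, the main oxygen sensor, averaged 258 ± 35.3 CPM in compact and 54.8 ± 6.27 in endocardial cells. Egln3, which HIF itself induces, averaged 62.3 ± 15.5 CPM in vascular, 42.0 ± 5.34 in mesenchymal, 29.8 ± 9.95 in epicardial, 18.8 ± 5.07 in endocardial, 15.1 ± 4.0 in compact and 2.41 ± 0.785 in trabecular cells. Egln1 held 98.4 ± 0.229% of both in trabecular, 94.5 ± 1.25% in compact, 66.8 ± 2.79% in mesenchymal and 64.1 ± 4.01% in vascular cells.

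The comparison of compact with trabecular cardiomyocytes set the sub-cluster named compact against the one named trabecular. In it 28 of the 34 members tested were higher in compact cells and 2, Pgam2 and Eno3, were lower, by edgeR's quasi-likelihood test with library as a block and Benjamini-Hochberg adjustment over 10771 genes at 0.05. Over all genes tested 24.8% were called, 11.8% higher and 13% lower. The median log2 difference of the members was 0.92, against 0.0097 for all genes. For 22 members all 4 compact values lay above all 4 trabecular values, which held for 7.06% of all genes, and Eno3 alone lay wholly below. Hk1, Pfkm, Ldhb and Slc16a1 did not pass, with log2 differences between -0.052 and 0.02, and Epas1 was too low to test. The classes were built from expression of the same cells, though not of these genes, so such p-values measure the spread over libraries and not the choice of clusters.

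Bnip3 had the lowest p of the members. The gene, a HIF-induced mitophagy receptor, stood at 729, 603, 895 and 890 CPM in compact cells of het 1, het 2, KO 1 and KO 2 and at 130, 108, 206 and 180 CPM in trabecular cells. Every compact value was above every trabecular one, with a log2 difference of 2.34 (SE 0.0877, adjusted p = 1.42e-13). Its relative Bnip3l stood at 387, 342, 453 and 498 CPM against 229, 196, 250 and 253 CPM, also apart (0.85, SE 0.0766, adjusted p = 5.84e-08). Among glycolytic genes, Hk2 stood at 65.8, 112, 84.5 and 112 CPM against 21.4, 39.8, 25.8 and 42.4 CPM (1.54, SE 0.0983, adjusted p = 4.48e-10). Pfkp stood at 341, 444, 372 and 451 CPM against 142, 180, 158 and 175 CPM (1.29, SE 0.0765, adjusted p = 1.6e-10). No library of these genes overlapped the other class.

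Pgk1 had 2487, 2053, 2601 and 2854 CPM in compact and 861, 878, 1124 and 1237 CPM in trabecular cells (1.29, SE 0.0883, adjusted p = 1.21e-09). Tpi1 had 2523, 2314, 2401 and 3202 CPM against 1092, 1151, 1214 and 1780 CPM (1.01, SE 0.0879, adjusted p = 3.61e-08). Both were again apart, with KO 2 the highest library in each class. Pdk1, the kinase that holds pyruvate back from mitochondria, had 251, 231, 286 and 238 CPM against 78.3, 85.2, 142 and 103 CPM (1.31, SE 0.0969, adjusted p = 3.31e-09). Egln3 had 11.3, 12.4, 19.9 and 16.8 CPM against 1.71, 2.0, 2.44 and 3.5 CPM (2.65, SE 0.238, adjusted p = 5.35e-08), the widest fold of the named genes on a low level. The muscle forms went the other way: Eno3 had 427, 323, 405 and 463 CPM in compact and 647, 633, 623 and 925 CPM in trabecular cells (-0.8, SE 0.0869, adjusted p = 6.96e-07). Pgam2 overlapped between the classes but was lower in compact cells of every library, with 1058, 714, 1058 and 1012 against 1152, 954, 1197 and 1503 CPM (-0.32, SE 0.0885, adjusted p = 0.01).

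**Figure D2:**
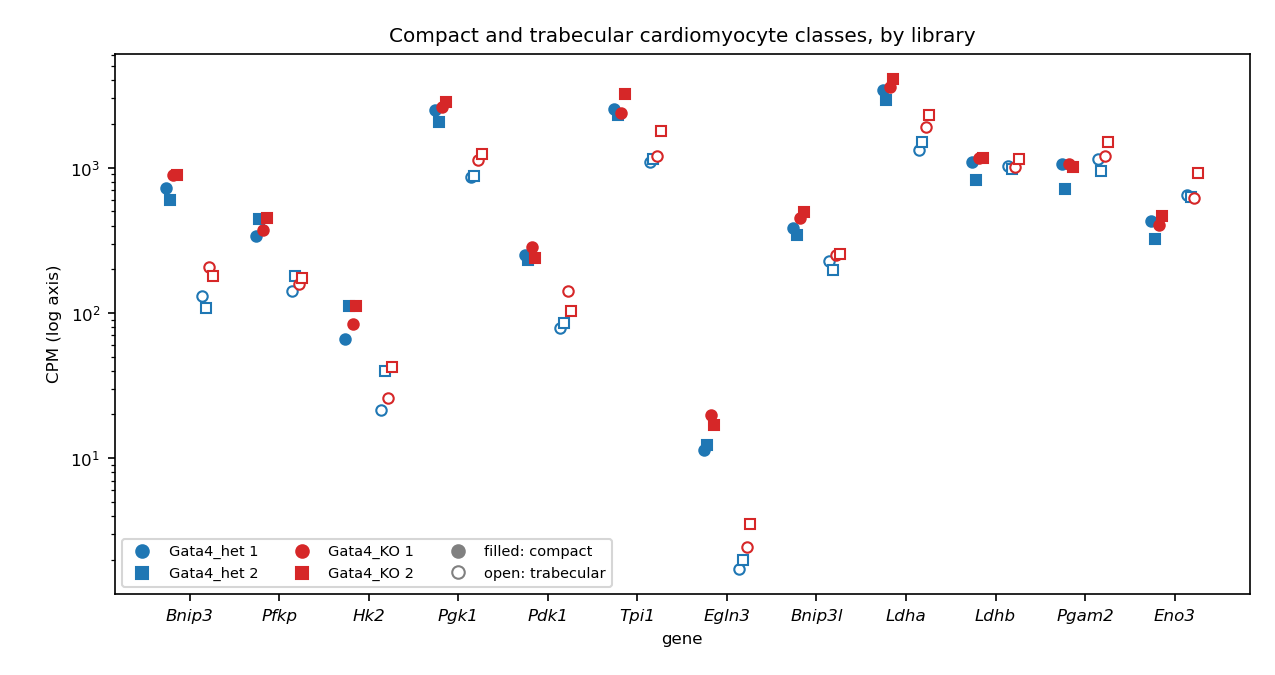
CPM on a log axis for 12 members in compact (filled) and trabecular (open) cardiomyocytes, 1 point per library, blue for het and red for KO. Filled points lie above open ones for Bnip3 to Ldha, the 2 classes overlap for Ldhb and Pgam2, and open points lie above filled ones for Eno3.

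Other genes of the pathway, taken from lists outside the members, showed the same split to different degrees. Of 22 tested genes of the HIF pathway and its targets, 16 were higher in compact cells and 0 lower (median 0.91). The hydroxylase genes Egln2 (-0.21, adjusted p = 0.134) and Plod1 (-0.49, adjusted p = 0.0762) had an unadjusted p under 0.05 in the other direction. Among the higher genes were the repressor gene Bhlhe40 (2.46), Mif, a cytokine (1.42), Higd1a, a mitochondrial stress protein (1.11), and the collagen cross-linker Loxl2 (1.24). Of 8 tested genes of a further glycolysis list, 3 were higher (Pgm1 0.87, Pgm2 0.98 and the neuronal enolase Eno2 1.23) and 1, the bisphosphoglycerate mutase Bpgm, was lower (-0.52). Of 10 genes of pyruvate entry to mitochondria, the carriers Mpc1 (0.23) and Mpc2 (0.3) were higher and the kinase Pdk3 (-0.55) and the phosphatase Pdp1 (-0.67) lower. The median was 0.16 for the further glycolysis list and 0.025 for pyruvate entry, against 0.0097 for all genes. These lists too were chosen with earlier results of these data known.

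The contrast was smaller with wider classes. Where every cardiomyocyte sub-cluster leaning to either name was added, the median of the members was 0.53, and Hk2 no longer passed (0.017, adjusted p = 0.845). Against the rest of the cardiomyocytes, the compact sub-cluster had a median of 0.26 to 0.39 by library, with 23 members above in all libraries and 4 below, and the trabecular one -0.62 to -0.47, with 4 above and 30 below. Another unnamed sub-cluster, of 2411 cells at a median of 16349.0 UMIs, was led by trabecular genes such as Nppa, Bmp10 and Gja5. Its mean log2 fold of the trabecular markers (1.31) and of the compact markers (0.209) was above that of the sub-clusters named for them (1.15 and 0.188). Its members stood at only -0.16 to -0.07, so the contrast describes 2 chosen sub-clusters and not the layers of the wall as a whole. An unnamed sub-cluster of 186 cells had members as high as the compact one (0.28 to 0.54, 25 above in all libraries), led by Rspo3 and Ndufa4l2. The share of all genes above or below in all libraries was not computed for the sub-clusters, so these counts of members have no background. Epicardial markers took 0.0213 to 0.0237% of UMIs in compact and 0.00778 to 0.0122% in trabecular cells; their part in the result was not tested.

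Endocardial and vascular cells are both endothelial, and both carried the Cre reporter. Endocardial cells were lower for 28 of 34 members tested and higher for Ddit4 alone, where 44.8% of 12591 genes were called (21.5% higher, 23.3% lower). The median of the members was -1.31, against 0.013 for all genes, and 27 members lay wholly below the vascular values, as 14.7% of all genes did. An unadjusted p under 0.05 was reached by 29 members and by 52.9% of all genes. Scaling by library totals in place of TMM moved the median of all genes to 0.19 and that of the members to -1.13, and the share of calls that were higher from 48.0 to 68.1%. Pfkm, Pgam2, Eno3, Ldhb and Epas1 did not pass, and Aldoc was too low to test. The 14 cardiomyocyte markers took 1.25, 0.332, 0.231 and 0.0566% of UMIs in vascular cells of het 1, het 2, KO 1 and KO 2. In endocardial cells they took 0.147, 0.128, 0.173 and 0.0825%. The part of muscle RNA in this contrast was not tested.

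Adm had the lowest p of the members. The gene, which encodes the vessel-active peptide adrenomedullin, stood at 0.646, 1.3, 1.83 and 1.52 CPM in endocardial and 43.2, 48.6, 66.8 and 61.8 CPM in vascular cells (-5.35, SE 0.143, adjusted p = 1.57e-06). Ankrd37, an ankyrin-repeat HIF target, stood at 7.11, 7.88, 10.3 and 10.9 CPM against 43.2, 64.5, 94.9 and 78.1 CPM (-2.98, SE 0.116, adjusted p = 3.13e-06). Neither gene overlapped between the classes in any library. Slc16a3 stood at 2.42, 5.92, 7.4 and 6.45 CPM against 40.2, 53.1, 61.1 and 74.7 CPM (-3.38, SE 0.156, adjusted p = 6.37e-06). Pkm stood at 248, 349, 356 and 399 CPM against 791, 1008, 867 and 1036 CPM (-1.5, SE 0.0842, adjusted p = 1.25e-05), and Pdk1 at 15.8, 18.3, 24.8 and 18.0 CPM against 58.7, 50.8, 75.1 and 52.0 CPM (-1.64, SE 0.0996, adjusted p = 1.8e-05). Ddit4, an inhibitor of mTORC1 signalling, overlapped at 20.5, 19.8, 12.3 and 14.3 CPM against 10.7, 9.48, 6.76 and 12.6 CPM, and was higher in endocardial cells of each library (0.74, SE 0.172, adjusted p = 0.0102). Epas1 did not separate the 2 classes, with a log2 difference of -0.029 (SE 0.0957, adjusted p = 0.828). Of 22 HIF pathway genes outside the members, 11 were lower and 3 higher in endocardial cells. The lower ones included Bhlhe40 (-1.8), Mif (-1.57) and the collagen lysyl hydroxylase Plod1 (-1.19), and the higher ones were Cited2 (1.62), a brake on HIF, Hif3a (1.64) and Arnt (0.4). Of 9 tested genes of the further glycolysis list, 4 were lower and 0 higher (Pgm2 -0.7, Pgp -0.48, Tigar -0.63 and Pgm1 -0.45). That list also holds genes that are not steps of glycolysis, such as Tigar and Pgp. Of 10 genes of pyruvate entry 3 were lower and 0 higher (Mpc1 -0.74, Dlat -0.63 and Dld -0.36).

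Against the mean of compact and trabecular cardiomyocytes, endocardial cells were lower for 28 of 35 members and higher for 4, with 80.7% of 12809 genes called (42.9% higher, 37.8% lower). The members' median was -2.49, against 0.1 for all genes. With library totals these medians were -1.92 and 0.66, and calls that were higher went from 53.2 to 71.3%. The higher genes were Epas1 at 94.5, 71.3, 123 and 93.0 CPM in endocardial cells (5.08, SE 0.18, adjusted p = 4.05e-13), Egln3 (1.64), P4ha1, a collagen prolyl hydroxylase (1.65), and Pfkfb3 (1.02). For each of these 4, all endocardial values lay above all per-library means of compact and trabecular cells, as for 37.8% of all genes. Against compact cells alone, Egln3 and Pfkfb3 overlapped. Eno3 stood at 7.43, 7.7, 10.6 and 6.96 CPM in endocardial cells and at 323 to 925 CPM in the cardiomyocyte classes (-6.01, SE 0.178, adjusted p = 6.82e-14). Pgam2 stood at 16.2, 11.7, 19.3 and 7.54 CPM against 714 to 1503 CPM (-6.32, SE 0.235, adjusted p = 6.65e-13). Ldhb stood at 57.7, 69.2, 59.7 and 58.0 CPM against 828 to 1174 CPM (-4.1, SE 0.141, adjusted p = 2.9e-13), and Pfkm at 7.92, 9.12, 9.23 and 8.62 CPM against 58.2 to 83.1 CPM (-3.0, SE 0.108, adjusted p = 4.51e-13). Ankrd37 (-0.52, adjusted p = 0.00617) was called lower with TMM and stood at 0.036 (adjusted p = 0.831) with library totals. Ndrg1, Ddit4 and Adm did not pass. All 10 genes of pyruvate entry to mitochondria were lower in endocardial cells (median -2.66), among them Pdk3 (-3.31) and the pyruvate dehydrogenase subunits Dlat (-2.84) and Pdhb (-2.61).

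Epicardial cells were set against mesenchymal cells, part of which descend from the epicardium. Of 35 members 24 were higher and 6 lower (Hk1, Pfkp, Ddit4, Egln3, Epas1 and Adm), with 63.9% of 14935 genes called (31.7% higher, 32.2% lower). The members' median was 0.46 against -0.016 for all genes. Slc16a1 stood at 185, 156, 174 and 168 CPM against 15.5, 17.5, 17.4 and 18.1 CPM in mesenchymal cells (3.29, SE 0.0815, adjusted p = 1.03e-11). Slc2a1 stood at 117, 175, 185 and 193 CPM against 21.8, 24.3, 23.2 and 27.5 CPM (2.79, SE 0.0879, adjusted p = 6.56e-11). For both transporters the lowest epicardial library was well above the highest mesenchymal one. Ndrg1, a stress-induced gene, stood at 28.7, 56.1, 74.0 and 66.7 CPM against 6.21, 6.07, 7.08 and 8.41 CPM (3.05, SE 0.132, adjusted p = 1.08e-09). Pdk1 stood at 63.7, 71.8, 98.3 and 81.1 CPM against 31.2, 26.6, 38.2 and 33.5 CPM (1.29, SE 0.0752, adjusted p = 1.67e-08). Adm went the other way, at 0.0, 0.755, 0.662 and 1.07 CPM against 14, 14.1, 13.2 and 21.8 CPM (-4.41, SE 0.211, adjusted p = 2.67e-09). Of 25 HIF pathway genes outside the members, 19 were higher in epicardial cells and 2 lower. The higher ones included the adenylate kinase Ak4 (2.2), the collagen-modifying enzymes Lox (1.52) and P4ha2 (1.73), and Ero1l, an oxidase of the endoplasmic reticulum (1.37). Immediate early genes, which dissociation can induce, took 0.43 to 0.611% of UMIs in epicardial and 0.18 to 0.252% in mesenchymal cells; their part in these differences was not tested.

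The genotype comparison set the libraries labelled Gata4_KO against those labelled Gata4_het. Since Gata4 itself was higher in endocardial cells of the KO libraries, each direction given here follows the labels and not a checked loss of the gene. In none of the 6 classes did a member pass the adjusted threshold, KO against het, by edgeR's quasi-likelihood test or by DESeq2. By edgeR 0.0209% of 14320 genes were called in endocardial cells (0.014% higher and 0.00698% lower), and 0.0% in each of the other 5 classes. At an unadjusted p under 0.05 stood 8 members in endocardial cells (7 of them above 0), where 4.71% of all genes did. The same count was 13 in vascular (10 above 0, 6.77% of all genes), 2 in compact (0 above 0, 2.97%), 6 in trabecular (6 above 0, 6.43%), 1 in mesenchymal (1 above 0, 1.0%) and 4 in epicardial cells (4 above 0, 1.65%).

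Most members nevertheless leaned to KO. Their median log2 difference was 0.34 in endocardial cells (28 of 35 above 0), 0.27 in epicardial (29 of 33), 0.19 in trabecular (25 of 33), 0.14 in compact (27 of 34), 0.1 in mesenchymal (25 of 35) and 0.072 in vascular cells (20 of 34), while medians of all genes lay between -0.021 and 0.011. Both KO libraries lay above both het libraries for 15 members in endocardial cells (14.8% of all genes), 14 in epicardial (14.6%), 15 in trabecular (22.1%), 12 in compact (18.0%), 8 in mesenchymal (9.4%) and 12 in vascular cells (18.6%). Both KO libraries lay below both het libraries for 1 member in endocardial (14.4% of all genes), 5 in vascular (17.9%), 2 in compact (10.8%), 0 in trabecular (14.8%), 4 in mesenchymal (9.62%) and 0 in epicardial cells (9.19%). The medians themselves moved when 1 library was left out. In endocardial cells the median was 0.17 without het 1 and 0.55 without het 2, and in epicardial cells 0.075 and 0.64. In trabecular cells it was 0.41 without het 2 and 0.31 without KO 1, in compact cells 0.23 without KO 1 and 0.06 without KO 2, in mesenchymal cells 0.2 without KO 1, -0.02 without KO 2 and 0.056 without het 1, and in vascular cells 0.11 without KO 1, -0.069 without KO 2 and -0.013 without het 2. With library totals it was 0.084 in trabecular and 0.023 in compact cells, where all genes then had medians of -0.1 and -0.14.

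**Figure D3:**
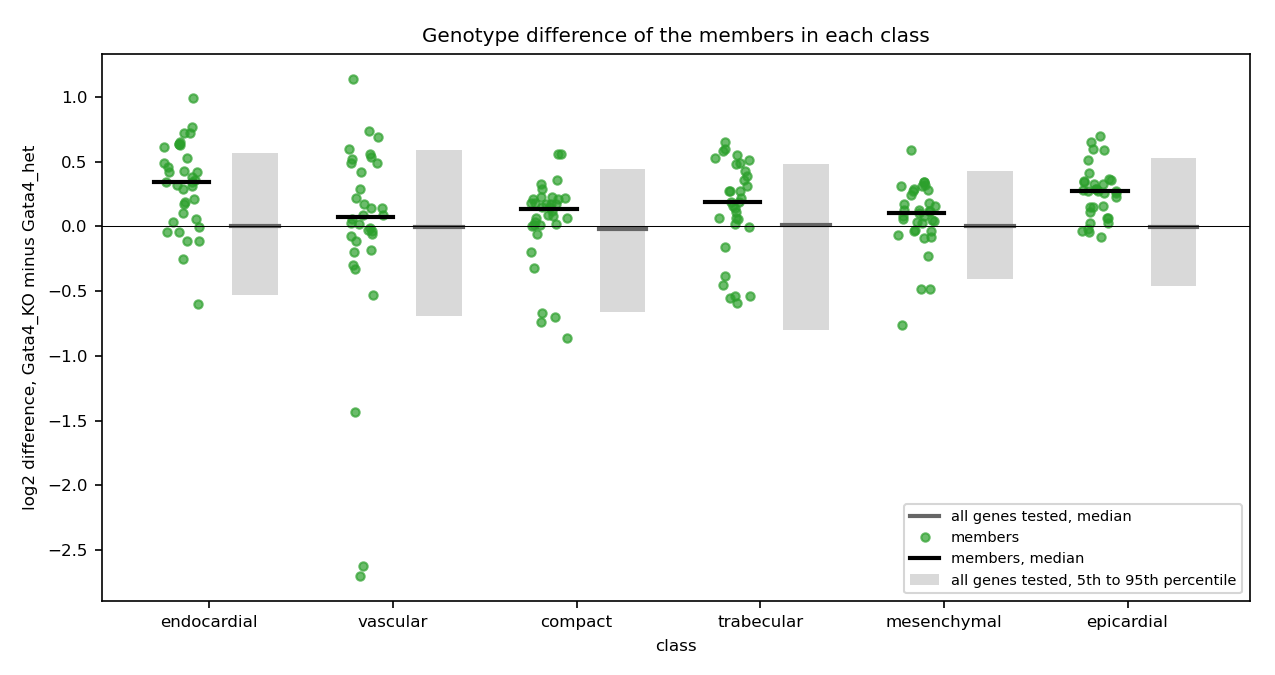
Log2 difference KO minus het of each tested member (green points) in the 6 classes, with the members' median (black line), the median of all genes tested (grey line) and their 5th to 95th percentile (grey box). The members' medians lie above 0 in every class, from 0.072 in vascular to 0.34 in endocardial cells, and the 2 lowest vascular points are Pgam2 and Eno3.

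In endocardial cells, the cells with the Cre reporter next to the muscle, Slc2a1 stood at 18.1 (het 1) and 23.8 CPM (het 2) against 35.2 (KO 1) and 34.5 CPM (KO 2) (0.72, SE 0.191, unadjusted p = 0.00599, adjusted p = 0.586). Pfkl stood at 39.1 and 50 against 65.8 and 63.3 CPM (0.53, SE 0.178, adjusted p = 0.817), and Eno1 at 112 and 159 against 182 and 231 CPM (0.61, SE 0.232, adjusted p = 0.982). In these genes both KO libraries were above both het libraries, and het 1 was the lowest. Egln3 stood at 13.3 and 16.1 against 21.6 and 24.3 CPM (0.64, SE 0.192, adjusted p = 0.733), and P4ha1 at 48.0 and 59.1 against 69.1 and 75.7 CPM (0.43, SE 0.174, adjusted p = 1.0). Ddit4 went the other way, at 20.5 and 19.8 against 12.3 and 14.3 CPM (-0.6, SE 0.186, adjusted p = 0.746). Slc16a1, below the level set for naming by p, stood at 3.72 and 4.38 against 8.51 and 7.9 CPM (0.99, SE 0.248, unadjusted p = 0.00422, adjusted p = 0.523). Hif1a overlapped between the groups, at 111 and 131 against 127 and 121 CPM, as did Hk2 at 7.6 and 11.1 against 7.24 and 8.77 CPM. Of 24 tested HIF pathway genes outside the members, 16 were above 0 and 0 were called (4 with an unadjusted p under 0.05, lowest adjusted p = 0.299).

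**Figure D4:**
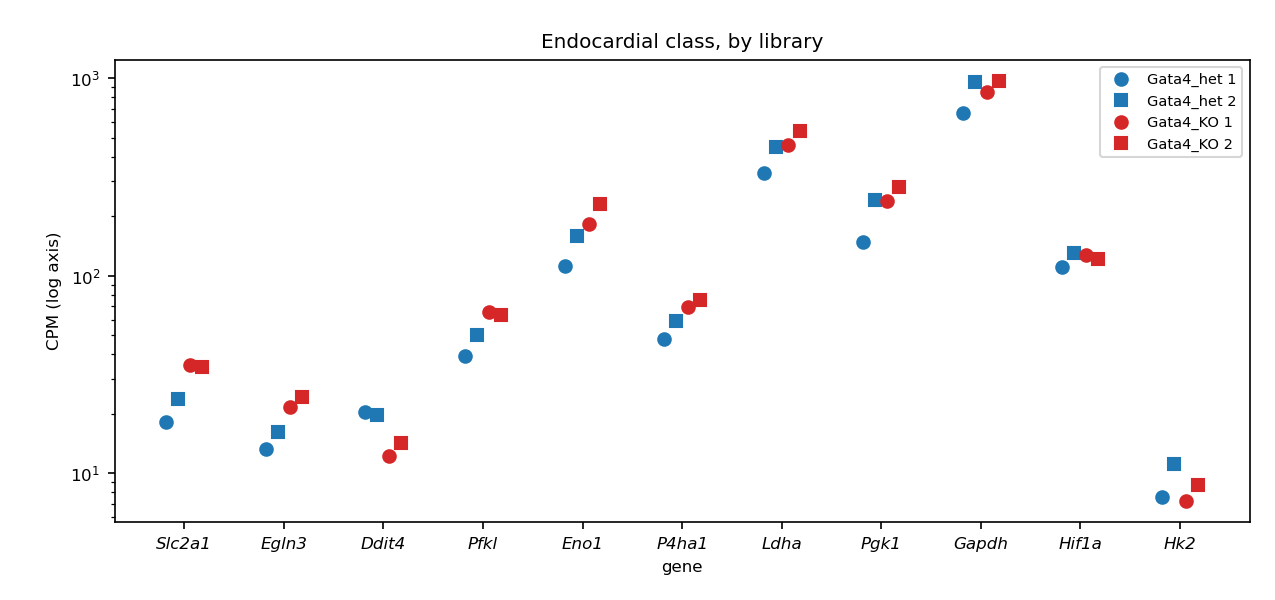
CPM on a log axis for 11 members in endocardial cells, 1 point per library, blue for het and red for KO. Both red points lie above both blue ones for Slc2a1, Egln3, Pfkl, Eno1, P4ha1 and Ldha and below them for Ddit4, and the groups overlap for Pgk1, Gapdh, Hif1a and Hk2.

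In vascular cells Ndrg1 had the lowest p of the members, at 30.2 (het 1) and 40.4 CPM (het 2) against 77.9 (KO 1) and 78.1 CPM (KO 2) (1.14, SE 0.195, unadjusted p = 0.000363, adjusted p = 0.578). Both KO libraries were apart from het. Ldhb stood at 166 and 68.4 against 45.0 and 41.5 CPM (-1.43, SE 0.379, adjusted p = 0.578), and Eno3 at 82.7 and 18.5 against 12.4 and 3.08 CPM (-2.62, SE 0.75, adjusted p = 0.578). The 14 cardiomyocyte markers moved with these muscle genes, at 1.25, 0.332, 0.231 and 0.0566% of the UMIs of vascular cells in het 1, het 2, KO 1 and KO 2, with all 14 detected in every library. Without het 2, Ndrg1, Ldhb, Eno3 and Pgam2 passed the adjusted threshold, among 2.63% of all genes, with het 1 as the only het library.

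Set as a share of the cardiomyocyte level in the same library, Pgam2 and Eno3 lay near those markers in vascular and endocardial cells, while Pfkm and Ldhb lay above them. In vascular cells Pgam2 stood at 12.8, 2.98, 1.66 and 0.465% of its cardiomyocyte level in het 1, het 2, KO 1 and KO 2, Eno3 at 15.4, 3.87, 2.42 and 0.443%, and the 14 markers at 14.8, 4.01, 2.59 and 0.605%. In endocardial cells Pgam2 stood at 1.46, 1.41, 1.71 and 0.599% and the markers at 1.51, 1.44, 1.82 and 0.829%. Pfkm stood at 10.6 to 14.1% and Ldhb at 5.02 to 7.64% in endocardial cells. In mesenchymal cells Eno3 stood at 4.38, 2.68, 2.87 and 1.58% against markers at 3.21, 1.12, 2.0 and 0.818%. Ldha did not follow the markers, at 45.5, 49.3, 36.8 and 37.2% in vascular and 13.9, 20.3, 16.7 and 16.9% in endocardial cells. In epicardial cells Pgam2 (4.33 to 7.68%) lay above the markers (2.78 to 4.17%) in every library. How much of the Pgam2 and Eno3 counts outside muscle is RNA from cardiomyocytes was not tested further.

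**Figure D5:**
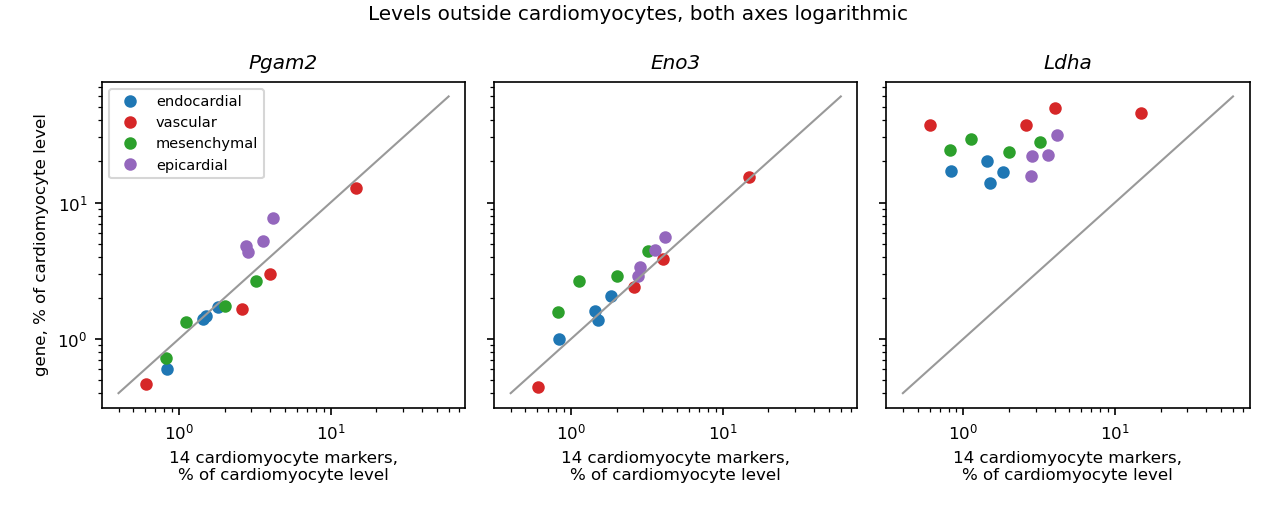
Level of Pgam2, Eno3 and Ldha outside cardiomyocytes (vertical axes) against the summed level of 14 cardiomyocyte markers (horizontal axes), each as a percentage of the cardiomyocyte level in the same library on log axes; points are the 4 libraries of each class, and the grey line marks equal percentages. Pgam2 and Eno3 points lie on both sides of the line, from 0.443 to 15.4%, and Ldha points lie above it, from 13.9 to 49.3%.

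In compact cells the members of lowest p were Slc2a3, at 18.2 (het 1) and 34.9 CPM (het 2) against 16.2 (KO 1) and 15.2 CPM (KO 2) (-0.86, SE 0.317, adjusted p = 1.0), and P4ha1, at 22.6 and 42.9 against 19.1 and 22.9 CPM (-0.74, SE 0.304, adjusted p = 1.0). In both, het 2 stood far above the other 3 libraries. Without het 1, with het 2 as the only het library, 7 members passed (Slc2a1, Slc2a3, Slc16a1, Slc16a3, P4ha1, Aldoa and Gapdh) among 6.78% of all genes, and the first 5 of these were the genes in which het 2 is the highest library. Ankrd37 stood at 21.4 and 14.9 against 30.8 and 23.7 CPM (0.56, SE 0.284, adjusted p = 1.0).

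In trabecular cells Bnip3 stood at 130 and 108 CPM in het against 206 and 180 CPM in KO (0.65, SE 0.217, adjusted p = 0.574), Pfkl at 117 and 132 against 185 and 202 CPM (0.58, SE 0.213, adjusted p = 0.6), and Pdk1 at 78.3 and 85.2 against 142 and 103 CPM (0.53, SE 0.227, adjusted p = 0.697). In all 3 both KO libraries lay above both het libraries. Ldha passed without KO 1, among 3.89% of all genes, and Slc16a3 without het 1, among 1.09%. In mesenchymal cells Bnip3 stood at 59.9 and 59.3 against 76.8 and 74.0 CPM (0.34, SE 0.13, adjusted p = 1.0), Pdk1 at 31.2 and 26.6 against 38.2 and 33.5 CPM (0.31, SE 0.147, adjusted p = 1.0) and Hk2 at 19.0 and 20.2 against 23.5 and 24.7 CPM (0.29, SE 0.14, adjusted p = 1.0). Pgam2 passed there without het 2, among 0.365% of all genes.

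In epicardial cells Bnip3 stood at 47.2 (het 1) and 84.8 CPM (het 2) against 112 (KO 1) and 111 CPM (KO 2) (0.7, SE 0.246, adjusted p = 1.0), Ndrg1 at 28.7 and 56.1 against 74.0 and 66.7 CPM (0.65, SE 0.259, adjusted p = 1.0), and Aldoc at 8.86 and 11.4 against 15.8 and 16.3 CPM (0.59, SE 0.238, adjusted p = 1.0). The KO libraries were apart from het in each, and het 1, with 80 cells, was the lowest. Without het 2, with het 1 as the only het library, Bnip3, Egln3 and Ndrg1 passed, among 0.692% of all genes. Bnip3 had a positive log2 difference in all 6 classes and passed in none. Both KO libraries lay above both het libraries in compact (0.36), trabecular, mesenchymal and epicardial cells, and the groups overlapped in vascular (0.17) and endocardial cells (0.46), in the last at 15.5 and 13.6 against 28.3 and 11.5 CPM.

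Whether the genotype difference itself differed between endocardial cells and the cardiomyocytes was tested as an interaction over 13656 genes, of which 0.0952% were called. No member passed by edgeR or DESeq2, and 7 had an unadjusted p under 0.05, as 8.36% of all genes did. Slc16a1 had the lowest p, with a difference of differences of 1.62 (SE 0.363, adjusted p = 0.105), followed by Slc16a3 (1.32), P4ha1 (1.01), Slc2a1 (1.05) and Ddit4 (-0.97). In these transporters the endocardial values were higher in KO, and the cardiomyocyte values were highest in het 2. Without het 1, Slc2a1, Slc2a3, Slc16a1, Slc16a3, P4ha1 and Ddit4 passed, among 6.45% of all genes, with het 2 as the only het library. The members' median was 0.003, against 0.01 for all genes.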

How the data were processed

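Single-cell RNA-seq counts (10x, 3′ end) of 4 libraries were used. The deposited matrices hold UMI counts that Cell Ranger 6.0.1 made, per the file headers; mm10 and Seurat are named in the submitters' processing notes, and whether counting used strand is not given in the sources used here. The labels name the kit in 2 conflicting ways. Barcodes with at least 500 genes and under 20% mitochondrial counts were kept, and Scrublet doublets (412, 242, 608 and 93) were removed. Its own threshold failed in het 1 and KO 2, where 0.323 was set after the scores were seen. Cells were clustered with scanpy 1.11.5 (2000 variable genes, 30 components, 20 neighbours, Leiden resolution 1), leaving out 86 member and pathway genes, and named from markers by rules set after the clusters were seen. The 35 members and the lists were chosen with earlier results of these data known. Counts were summed per class and library and tested with edgeR 4.0.16 (filterByExpr, TMM, quasi-likelihood), each KO against het fit with the libraries of that class alone and class comparisons with library as a block. P-values were Benjamini-Hochberg adjusted over all genes tested, at 0.05. Scripts were tested on simulated data.

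Named members were the 8 of lowest p between compact and trabecular cells, the 5 of lowest p in each other class comparison, and for genotype the 6 of lowest p in endocardial cells and the 3 in each other class, at 10 CPM or more, with the isozyme pairs and up to 4 genes per pathway list; Slc16a1 in endocardial cells and genes named only for their levels or in leave-one-out results fall outside that rule and were chosen after their values were seen. Alternatives were DESeq2 1.42.0, library totals, no filter on low counts, another clustering resolution, members among the clustering genes, doublets kept, a floor of 2000 UMIs, a replicate block and leaving out each library. Wider cardiomyocyte classes, and the UMI floor and kept doublets for comparisons between classes, were added after seeing the data. Cells are not replicates, and 2 libraries a group limit the precision.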

Additional observations from a re-analysis of the deposited data

Results flagged for a closer look

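Vegfa, the main vessel growth factor and a HIF target outside the 35 members, was the 1 gene of the 3 pathway lists whose genotype difference differed between endocardial cells and cardiomyocytes. The KO minus het difference in endocardial cells minus that in cardiomyocytes was 1.33 on the log2 scale (SE 0.234, adjusted p = 0.0291 by edgeR's interaction test). The Vegfa call was lost without KO 2, and whether it held under the other alternatives is not given here. In endocardial cells Vegfa stood at 9.86 (het 1) and 8.77 CPM (het 2) against 21.6 (KO 1) and 17.6 CPM (KO 2), with no overlap. In compact cells it stood at 59.4 and 82.4 against 70.7 and 61.6 CPM, and in trabecular cells at 33.8 and 45.8 against 38.3 and 27.6 CPM, where the groups overlapped. In vascular (36.5 and 21.4 against 42.6 and 36.9 CPM), mesenchymal (34.1 and 35.5 against 52.4 and 43.5 CPM) and epicardial cells (68.3 and 73.7 against 131 and 84.4 CPM) both KO libraries again lay above both het libraries, and in none of the 6 classes did the difference itself pass the adjusted threshold.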

How the results depend on the processing

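The class comparisons kept the direction of the members' median under every alternative run. Between compact and trabecular cells it was 0.76 at Leiden resolution 1.5, 0.53 with broader classes and 1.05 with members among the clustering genes, against 0.92, and 0.86 to 0.98 leaving out each library. For endocardial cells against cardiomyocytes it was -2.18 at Leiden resolution 1.5 and -1.92 with library totals, against -2.49. For the genotype comparisons counts of calls moved and some of the members' medians changed sign, and the cause was not tested. Genes called, KO against het, were 3 in endocardial cells and 40 by DESeq2, 0 at Leiden resolution 1.5, 179 without the low-count filter and 95 to 129 leaving out each library. In vascular cells they were 0, and 4 by DESeq2, 343 without the filter and 0 to 327 leaving out each library. In compact cells they were 0, and 7 without the filter and 10 to 802 leaving out each library (802 without het 1). In trabecular cells they were 0, and 1 by DESeq2, 1 with doublets kept, 72 without the filter and 6 to 431 leaving out each library. In mesenchymal cells they were 0, and 1 by DESeq2, 35 without the filter and 0 to 63 leaving out each library. In epicardial cells they were 0, and 3 by DESeq2, 20 without the filter and 14 to 100 leaving out each library. For the interaction they were 13, and 8 by DESeq2, 85 at Leiden resolution 1.5, 6 with broader classes, 2 with library totals, 122 without the filter and 0 to 906 leaving out each library (906 without het 1).

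Members called were 0 in every genotype comparison. Without the filter they were 4 in vascular cells and 4 for the interaction, and 2 for the interaction at Leiden resolution 1.5. The number of genes tested in these fits is not given here, so these counts have no share of all genes beside them. Leaving out each library gave 0 to 4 in vascular, 0 to 7 in compact, 0 to 1 in trabecular, 0 to 1 in mesenchymal and 0 to 3 in epicardial cells, and 0 to 6 for the interaction; a group then rests on 1 library, assumed to vary like the others. The members' median ranged over 0.17 to 0.55 in endocardial, -0.069 to 0.11 in vascular, 0.14 to 0.41 in trabecular and -0.02 to 0.2 in mesenchymal cells, and over -0.14 to 0.15 for the interaction (0.003 with all libraries). It lay below 0 in vascular cells without KO 2 (-0.069) and without het 2 (-0.013) and in mesenchymal cells without KO 2 (-0.02), and was 0.084 in trabecular cells with library totals.

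With the replicate number as a block, genes called were 501 in endocardial (3.5% of all genes tested), 563 in vascular (4.81%) and 6 in compact cells (0.0542%). They were 53 in trabecular (0.497%), 145 in mesenchymal (0.858%) and 63 in epicardial cells (0.453%). Members called were 10 of 35 in endocardial, 7 of 34 in vascular, 2 of 35 in mesenchymal and 2 of 33 in epicardial cells. The labels tie same-numbered libraries to nothing but a number, and there were only 2 such pairs. Over the genes tested, the deviation of het 1 from the het mean was correlated with that of KO 1 from the KO mean. The correlation was 0.55 in mesenchymal, 0.54 in endocardial, 0.46 in vascular, 0.39 in epicardial, 0.19 in compact and 0.019 in trabecular cells. The planned run without clusters led by G2/M genes gave no value, since 0 clusters of the 6 classes had one. The broader classes, and the UMI floor and kept doublets between classes, were chosen after seeing the data. There were 76 to 457 vascular and 80 to 325 epicardial cells a library; how cell number limits the calls was not tested.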
